A study of Homo sapiens with 12 samples.

Results

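The genes described here are 41 interferon-stimulated genes and nucleic acid sensors, taken by symbol from a fixed list and read in a table of raw counts of 60656 Ensembl gene IDs. All 41 had an ID in the table. DDX58, which RefSeq now calls RIGI, was found by its GENCODE name. Of the 41, 40 had enough counts to be tested, and XAF1 did not. RNA was sequenced from 3 established human cell lines, A2058, A375 and SKMEL-5, all derived from melanoma. Each line was grown under atmospheric oxygen (normoxia, the reference) and under 1% oxygen (hypoxia), with 2 biological duplicate libraries per line and condition, so that 12 libraries fell into 6 groups. No interferon, virus or nucleic acid is named in the labels, so the levels below are those of cultured cells with no stated stimulus of this pathway. The number of hours in low oxygen is not given in the sources used here.

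Cells detect misplaced nucleic acids with sensor proteins. CGAS reads DNA in the cytosol and signals through STING1, DDX58 and IFIH1 read viral-type RNA, and TLR3 reads double-stranded RNA in endosomes. The sensors activate IRF3 and IRF7, which switch on type I interferon. Secreted interferon acts through its receptor, the kinases JAK1 and TYK2, and a complex that contains STAT2 and IRF9, and this complex binds the interferon-stimulated response element (ISRE) in front of many genes. The products of those genes sense viral double-stranded RNA (the OAS family) or hold foreign RNA off ribosomes (IFIT family). Others keep viruses out at the membrane (IFITM family), block capsids and replication (MX1, MX2, SAMHD1, RSAD2) or tag proteins (ISG15 with HERC5 and USP18). Tumour cells often carry some of this program at rest and can lose single sensors.

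The members share sequence that the list did not use. In the 250 bases before the annotated start, from RefSeq promoters on GRCh38.p14, 29 of the 41 members had an entry. The ISRE core, searched as GAAA, any 2 bases and GAAA again, or as its reverse complement (TTTC, any 2 bases, TTTC), with overlapping matches counted, occurred in 19 of the 29 (65.5%). It occurred in 3.02% of all 35116 promoters in that table, and in 3.71% of 27305 genes when a gene counted if any of its promoters matched. The letters TTCNNNGAA, the core of the interferon-gamma activated site (GAS), occurred in 9 of the 29 (31%), against 6.57% of all promoters and 8.09% of genes. BST2, HERC5, IFIT5, OAS3 and IFI44 are printed because they differed between the lines below, and SAMD9 because it differed between hypoxic libraries. IRF1 is shown as an example of a GAS core with no ISRE core. Each stretch lies upstream of the gene's GENCODE 29 model and is written 5′ to 3′ on the gene strand, with the matching letters in capitals.
BST2, chr19:17405731-17405780, minus strand: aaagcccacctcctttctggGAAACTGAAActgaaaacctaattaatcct
HERC5, chr4:88457025-88457074, plus strand: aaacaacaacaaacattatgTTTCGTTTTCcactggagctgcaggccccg
IFIT5, chr10:89414503-89414552, plus strand: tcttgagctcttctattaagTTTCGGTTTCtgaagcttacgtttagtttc
OAS3, chr12:112938311-112938351, plus strand: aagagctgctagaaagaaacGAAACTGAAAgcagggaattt
IFI44, chr1:78649751-78649795, plus strand: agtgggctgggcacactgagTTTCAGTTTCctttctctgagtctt
SAMD9, chr7:93118086-93118135, minus strand: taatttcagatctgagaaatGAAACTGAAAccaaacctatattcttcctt
IRF1 (GAS core), chr5:132490869-132490917, minus strand: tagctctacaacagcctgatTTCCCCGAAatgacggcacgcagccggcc
The printed BST2 stretch holds a second, overlapping match that begins 6 bases later. A GAS core overlaps the first bases of the match in capitals. No match of either kind was in the window of DDX58, IFI16, SAMHD1, STAT2 or XAF1, which says only that these letters are not there. CGAS, OAS2, TRIM22 and USP18 were among the 12 members with no entry. A match is a description of letters, not a measured site.

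Library totals ran from 33831569 to 54202819 counts. Levels are given as CPM, counts relative to the TMM-scaled library total. The upper limit for a gene with no count is 3 counts, or 0.0553 to 0.0887 CPM before that scaling (counting error only). The oxygen labels held: CA9, a hypoxia-induced carbonic anhydrase, lay between 0.0826 and 19.0 CPM in the 6 normoxic libraries and between 352 and 725 CPM in the 6 hypoxic ones. Normoxic CA9 was uneven, higher in replicate 1 than in replicate 2 (19.0 and 0.0826 CPM in A2058, 4.91 and 0.805 in A375, 9.81 and 0.223 in SKMEL-5). NDRG1 ran from 41.3 to 272 CPM in normoxia and from 743 to 4330 CPM in hypoxia, and VEGFA from 50.5 to 117 CPM and from 149 to 828 CPM. In 3 hypoxic libraries (A2058 replicate 2, A375 replicate 1 and SKMEL-5 replicate 1) expression stood apart from the other library of their group on the first within-line component, which carried 47.1% of the variance. Libraries named A375 and SKMEL-5 were nearly alike, with correlations of log2 CPM from 0.912 to 0.990 between the names against 0.917 to 0.982 within A375, and for 7 of these 8 libraries the nearest neighbour bore the other name, with condition and replicate number shared. MITF, the melanocyte master factor, was at 17.2 to 28.3 CPM in A375 and 91.2 to 173 CPM in SKMEL-5. Whether the cultures or labels of these lines were partly mixed was not tested, so the libraries are meant by their labels throughout, and the 2 names may not be independent lines in the comparisons below. SOX10, a melanoma lineage factor, lay between 765 and 1683 CPM in all 12 libraries, whereas TYR and MLANA, pigment cell genes, had 0 counts in every A375 and SKMEL-5 library. Markers of blood cells summed to 0.991 to 15.8 CPM, mostly LYZ, with PTPRC at most 0.259 CPM and MS4A1 at 0. Fibroblast markers summed to 29 to 132 CPM in A2058 and 4.83 to 10.8 CPM in the other lines. Keratinocyte markers summed to 43.3 to 144 CPM, mostly KRT10. Among them KRT14 was at 0.154 to 1.03 CPM in A2058 and 2.48 to 18.8 CPM in the other lines. The part of these cell type markers in the differences between lines was not tested.

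The 41 members together made up 993 to 1538 CPM per library, with a median of 1130 CPM. In a bulk library, fewer cells expressing a gene and less RNA per cell cannot be told apart. Divided by exon length, IFITM3 was the most abundant member in every line, at 156 ± 37.0 CPM per kb for A2058, 232 ± 74.7 for A375 and 249 ± 90.0 for SKMEL-5 (SD, n = 4 libraries of both conditions). IFITM3 holds viruses back in endosomes. In A2058 the next member was IFI16, a nuclear DNA sensor, at 72.1 ± 19.8 CPM per kb, followed by IFITM2 at 32.0 ± 5.91 and IFI6 at 26.5 ± 12.8. Those 3 genes held ranks 2 to 4 in the other lines as well, between 23.9 and 32.3 CPM per kb, and did not differ there beyond their SD. Up to 34.1% of the 50-base windows of IFITM1, IFITM2 and IFITM3 also occur in another gene, so reads could have been shared among these copies. At the other end, XAF1, an apoptosis-linked member, reached at most 0.379 CPM (18 counts, in A2058 hypoxia replicate 1), and IFI27, a classical marker of interferon exposure, lay between 0.0908 and 0.381 CPM in all libraries. RSAD2 (viperin) reached at most 0.800 CPM and OASL at most 0.908 CPM, both in A2058. ISG15, the ubiquitin-like tag, lay between 2.13 and 11.69 CPM, and IFIT1, which binds foreign 5′ RNA ends, between 2.26 and 10.3 CPM. The remaining effectors lay in between. MX2, which blocks the nuclear entry of viral capsids, ran from 42.5 to 108 CPM, and its relative MX1 from 2.97 to 14.8 CPM. ISG20, an RNA exonuclease, ran from 21.6 to 116 CPM, GBP1 from 4.04 to 21.5 CPM, IFIT2 from 0.776 to 5.95 CPM, IFITM1 from 0.303 to 2.03 CPM and IFI44L from 0.256 to 6.51 CPM. IRF1, a factor induced by interferon-gamma, ran from 1.52 CPM in A2058 hypoxia replicate 2 to 21.5 CPM in SKMEL-5 normoxia replicate 1.

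Sensors and factors differed in level as well. STING1, the adaptor downstream of CGAS, lay between 22.9 and 55.7 CPM in all libraries. The RNA sensors were lower, with DDX58 between 1.83 and 7.07 CPM, IFIH1 between 3.39 and 12.1 CPM and TLR3 between 1.03 and 6.09 CPM. Among the transcription factors, IRF3 lay between 26.1 and 78.4 CPM and STAT2 between 23.9 and 67.4 CPM, whereas IRF7 ran from 1.02 to 11.6 CPM and IRF9 from 0.363 to 6.82 CPM. Of the 50-base windows of IRF9, 43.6% also occur in another gene, mainly the read-through model AL136295.5, so its level is uncertain. The interferons themselves were almost silent: 7 of 9 listed interferon genes had no count, IFNB1 had 2 counts in 1 library, and IFNE reached at most 0.700 CPM.

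**Figure D1:**
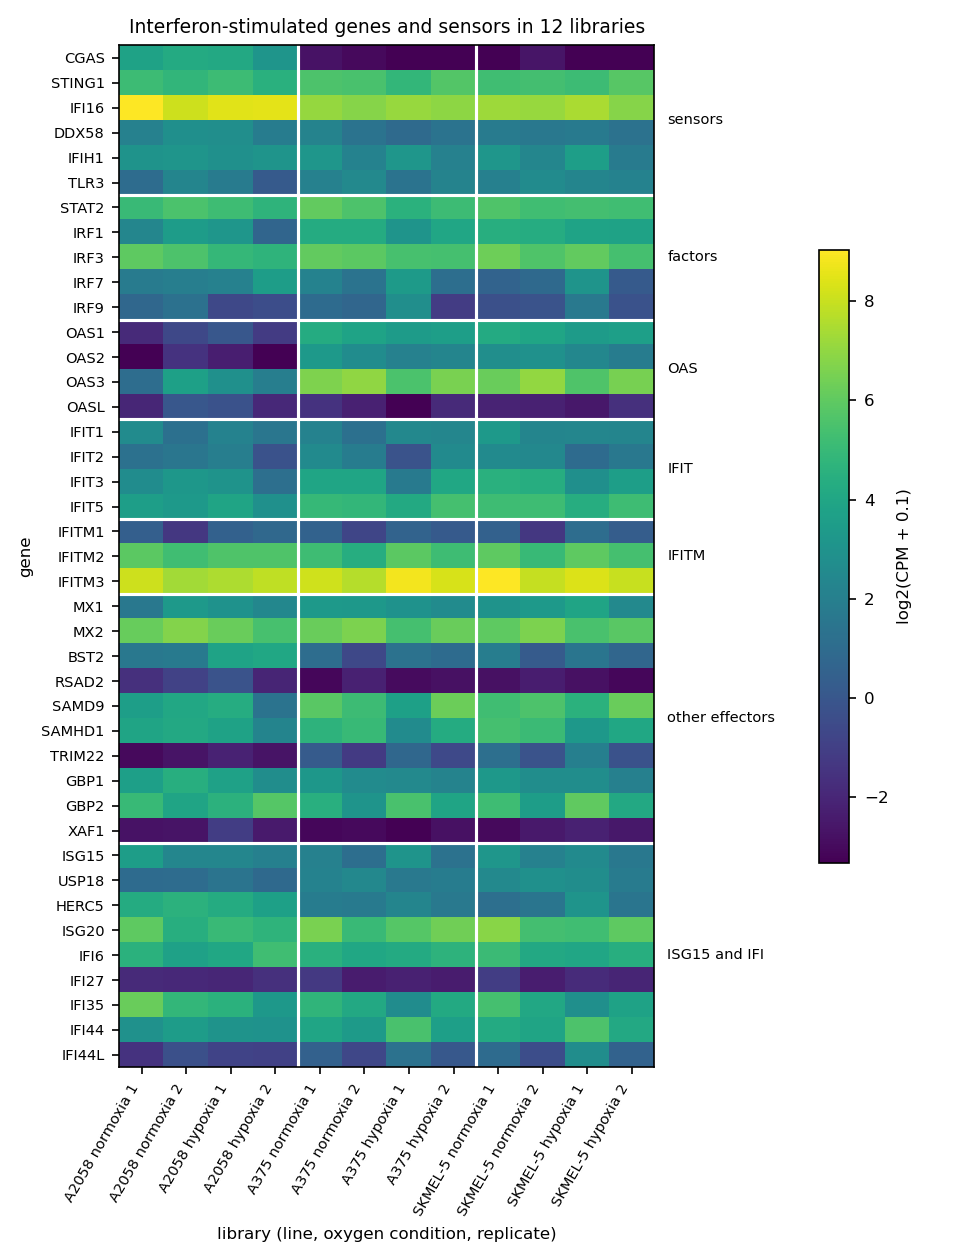
Level of each of the 41 members (rows, grouped by role) in each of the 12 libraries (columns), as colour on a log2(CPM + 0.1) scale. CGAS is dark in all 8 A375 and SKMEL-5 libraries, OAS1, OAS2 and TRIM22 are dark in the 4 A2058 libraries, and IFITM3 and IFI16 are the brightest rows.

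The clearest pattern among the members was between lines. In A2058, CGAS, IFI16 and HERC5 were higher than in A375 and SKMEL-5, in normoxia and again in hypoxia. OAS1, OAS2, OAS3, TRIM22 and IFIT5 were lower in A2058 in both conditions. In normoxia 9 of 40 tested members were called at an adjusted p under 0.05, 3 higher and 6 lower in A2058, or 22.5% of members against 17.9% of all 19636 tested genes (9.51% higher and 8.43% lower). In hypoxia 11 of 40 were called, 5 higher and 6 lower, or 27.5% against 21.1% of all genes (11.2% higher and 9.95% lower). These shares were near the background, so the results below concern the named genes and not the list. Of the members, 8 were called in both conditions (88.9% of those called in normoxia and 72.7% in hypoxia), and 2820 of all genes were (80% and 67.9%).

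CGAS, the enzyme that makes the messenger cGAMP on meeting DNA (chr6:73413515-73452276, minus strand), rose above the counting floor in A2058 libraries alone. In normoxia 531 and 670 counts were recorded there, and in hypoxia 827 and 295, or 13.6, 18.4, 17.4 and 8.48 CPM. The A375 libraries had 3 and 1 counts in normoxia and 0 in both hypoxic libraries, and SKMEL-5 had 0 and 3 counts in normoxia and 0 in both hypoxic libraries. No A375 or SKMEL-5 library therefore exceeded the limit that a count of 0 allows. Summed over libraries, the normoxic level in A2058 was 421-fold that of the other lines (95% counting interval 204 to 1050), and the hypoxic level was at least 795-fold higher, with the 4 other hypoxic libraries set at a floor of 3 counts in all. CGAS was called in both conditions (adjusted p = 9.55e-05 in normoxia and 6.07e-05 in hypoxia). A stretch of 180 exonic bases of CGAS is overlapped on the opposite strand by DDX43, and the counting's use of strand is not given in the sources used here.

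STING1, by contrast, was not called between lines, with fitted log2 differences of A2058 from the other lines of -0.42 (SE 0.34, adjusted p = 0.461) in normoxia and -0.55 (SE 0.34, adjusted p = 0.297) in hypoxia. Mean STING1 was 30.5 ± 6.37 CPM in the A2058 libraries, 43.3 ± 10.03 in A375 and 42.2 ± 9.13 in SKMEL-5 (SD, n = 4). IFI16, the other DNA sensor in the list (chr1:158999968-159055155, plus strand), stood at 525 and 275 CPM in A2058 normoxia and at 363 ± 15.9 CPM (SD, n = 2) in A2058 hypoxia, against 110 to 179 CPM in the other 8 libraries. All A2058 libraries were above all others. The log2 difference was 1.60 in normoxia (SE 0.32, adjusted p = 0.00562) and 1.40 in hypoxia (SE 0.32, adjusted p = 0.0104). Without A2058 normoxia replicate 1 the normoxic value was 1.08 (adjusted p = 0.118), and without A2058 hypoxia replicate 2 the hypoxic value was 1.35 (adjusted p = 0.0812). Without the 3 hypoxic libraries that stood apart it was 1.62 (adjusted p = 0.0604). AIM2, a DNA sensor that is not a member and is named here after its values were seen, went the other way, at 0.0287 to 0.128 CPM in A2058 and 2.37 to 18.2 CPM in the other lines (log2 difference -6.70 in normoxia, adjusted p = 0.000986).

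OAS1, OAS3 and OAS2 lie next to each other on chromosome 12, between 112906777 and 113011723, and encode enzymes that make 2-5A, a second messenger, on binding double-stranded RNA. OAS1 was at 0.179, 0.550, 0.926 and 0.345 CPM in the A2058 libraries (normoxia 1 and 2, hypoxia 1 and 2) and at 10.9 to 19.2 CPM in the 8 others. Its log2 difference was -5.53 in normoxia (SE 0.65, adjusted p = 0.000205) and -4.16 in hypoxia (SE 0.59, adjusted p = 0.000654). OAS2 had 0, 9, 5 and 0 counts in A2058, against 3.52 to 10.2 CPM in the other libraries. Summed over libraries, the other lines had 69.8-fold more OAS2 in normoxia (95% counting interval 36.7 to 153) and 71.8-fold more in hypoxia (30.6 to 222). The fitted log2 differences were -5.94 in normoxia (adjusted p = 0.00398) and -6.19 in hypoxia (adjusted p = 0.00355). The counting intervals leave out the spread between libraries, and each value rests on 1 A2058 library with counts and 1 with none. OAS2 was still called with either A2058 library of the condition left out (adjusted p = 0.0178 and 0.00267 in normoxia without replicates 1 and 2, 0.0111 and 0.0346 in hypoxia). OAS3, the longest of the family, was detected in A2058 at 2.05, 12.8, 7.34 and 3.85 CPM and at 46.8 to 129 CPM elsewhere, a log2 difference of -3.86 in normoxia (SE 0.75, adjusted p = 0.00470) and -3.64 in hypoxia (SE 0.74, adjusted p = 0.00540). All A2058 libraries were below all others for each of these 3 genes. Without A2058 normoxia replicate 1 the normoxic OAS3 difference was -3.05 and without replicate 2 it was -5.72, called in both cases (adjusted p = 0.0192 and 0.00182), and that of OAS1 was -4.91 and -6.54. The hypoxic OAS1 difference was -5.06 without A2058 hypoxia replicate 1. The hypoxic OAS3 difference was -3.24 without A2058 hypoxia replicate 2 (adjusted p = 0.0769) and -3.62 without the 3 libraries that stood apart (0.0785). OASL, the relative on the same chromosome arm that makes no 2-5A, was low in all lines and was not called. Its fitted difference of A2058 from the other lines was above 0 in both conditions.

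HERC5, the ligase that attaches ISG15 to new proteins (chr4:88457117-88506163, plus strand), was at 19.3 and 24.7 CPM in A2058 normoxia and 19.5 and 13.0 CPM in A2058 hypoxia, and at 2.15 to 8.34 CPM in the other libraries. The log2 difference was 2.93 in normoxia (SE 0.44, adjusted p = 0.00104) and 1.80 in hypoxia (SE 0.44, adjusted p = 0.0142). Without A2058 hypoxia replicate 1 the hypoxic value was 1.48, and the call was lost. The hypoxic call was lost against SKMEL-5 alone too (1.56, adjusted p = 0.0807) and held against A375 alone. USP18, the protease that removes ISG15, was lower in A2058 in normoxia, at 1.90 and 1.95 CPM against 4.29 to 7.18 CPM (log2 difference -1.53, SE 0.46, adjusted p = 0.0418). That call was lost when any of the 6 normoxic libraries was left out (adjusted p from 0.0743 to 0.224), and 23.4% of the 50-base windows of USP18 also occur elsewhere, mainly in its copy USP41. ISG15 itself was not called between lines in either condition.

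TRIM22, an antiviral ubiquitin ligase, had 1, 2, 6 and 2 counts in the A2058 libraries and 0.331 to 3.98 CPM in the others. Summed over libraries the other lines had 29.2-fold more in normoxia (95% counting interval 9.85 to 143) and 17.0-fold more in hypoxia (8.51 to 39.8). The fitted log2 differences were -4.59 in normoxia (adjusted p = 0.0186) and -4.05 in hypoxia (adjusted p = 0.0193). Leaving out either A2058 library of the condition ended the call. The log2 difference was -4.13 and -5.19 in normoxia without replicates 1 and 2 (adjusted p = 0.165 and 0.0832), and -4.74 and -3.66 in hypoxia (0.0816 and 0.160), against -4.59 and -4.05 with all libraries. Without the 3 hypoxic libraries that stood apart the hypoxic value was -2.34 (adjusted p = 0.270). IFIT5, which binds RNA with 5′ phosphates, was at 7.18 to 14.8 CPM in A2058 and at 18.03 to 42.5 CPM in the others, a log2 difference of -1.58 in normoxia (SE 0.45, adjusted p = 0.0323) and -1.41 in hypoxia (SE 0.45, adjusted p = 0.0447). The IFIT5 calls were the least firm: leaving out any of the 6 normoxic libraries ended the normoxic call (adjusted p from 0.0623 to 0.172), and leaving out any of 9 libraries ended the hypoxic call (from 0.0549 to 0.298). A replicate block across lines ended the hypoxic call too (-1.29, adjusted p = 0.0843). IFIT1, IFIT2 and IFIT3, its neighbours on chromosome 10, were not called.

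BST2, RSAD2 and IFI44 were called between lines in hypoxia only; whether their line differences changed with oxygen is covered by the test of unequal oxygen responses further on, in which no member was called. BST2 (tetherin, which holds budding virus on the cell) was at 14.5 and 16.4 CPM in A2058 hypoxia and 1.60 to 2.67 CPM in the other hypoxic libraries (log2 difference 2.85, SE 0.58, adjusted p = 0.00530). Without the 3 hypoxic libraries that stood apart the BST2 difference was 3.08 (adjusted p = 0.0709). RSAD2 had 38 and 5 counts in A2058 hypoxia and 1 or 2 counts in each of the other hypoxic libraries. The ratio over the summed counts was 15.2 (95% counting interval 6.45 to 43.8). The fitted log2 difference was 3.67 (adjusted p = 0.0158). The RSAD2 call was lost without A2058 hypoxia replicate 1 (1.96) or SKMEL-5 hypoxia replicate 2 (3.40). It was lost as well against A375 alone (3.54, adjusted p = 0.0674) and against SKMEL-5 alone (3.81, adjusted p = 0.0539). IFI44, an interferon-induced GTP-binding protein, was at 8.18 and 7.76 CPM in A2058 against 44.7 and 12.4 CPM in A375 and 48.7 and 17.4 CPM in SKMEL-5 (log2 difference -1.95, SE 0.58, adjusted p = 0.0351). Its high values were in the A375 and SKMEL-5 libraries that stood apart, and leaving out any of 7 libraries ended the call (adjusted p from 0.0507 to 0.204).

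**Figure D2:**
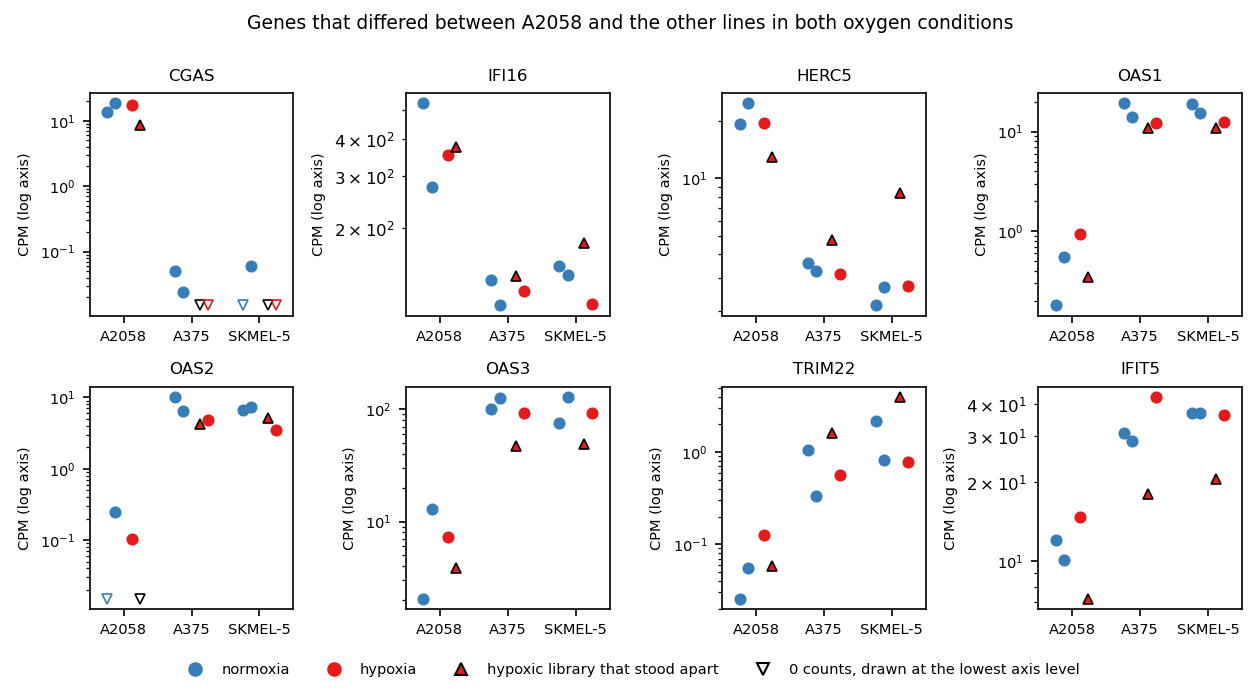
CPM of 8 members in each library (log axes, 1 panel per gene, circles for libraries and triangles for the hypoxic libraries that stood apart, open triangles for 0 counts). CGAS, IFI16 and HERC5 lie higher in the 4 A2058 libraries, and OAS1, OAS2, OAS3, TRIM22 and IFIT5 lie lower there, with no overlap with the other 8 libraries.

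Over all 12 libraries, 4 tested members had every A2058 library above every other library (CGAS, HERC5, IFI16 and RSAD2, 10% of members against 10.6% of all genes), and 6 had every A2058 library below (IFIT5, OAS1, OAS2, OAS3, TRIM22 and USP18, 15% against 11.9%). The median log2 difference of the members was -0.31 in normoxia and -0.35 in hypoxia, against -0.03 and -0.06 over all genes. Between A375 and SKMEL-5 no member was called, against 0.0102% of all genes (2 genes), and no member had an unadjusted p under 0.05, against 1.78% of all genes. TRIM22 had the widest negative fitted difference there, -1.11 (SE 0.66, adjusted p = 1.0), and IRF9 the widest positive one, 1.06 (SE 0.73, adjusted p = 1.0). Without A2058 normoxia replicate 1 the normoxic count was 5 members (12.2%, against 8.54% of all genes), and without A2058 hypoxia replicate 2 the hypoxic count was 6 (14.6%, against 9.06%). The hypoxic count was 7 without the 3 libraries that stood apart (17.1%, against 9.28%), and 7 again with A2058 set against A375 alone (17.5%, against 15.8%) or SKMEL-5 alone (17.5%, against 14.6%).

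In the mean of the 3 lines, 0 of 40 tested members were called, against 1.12% of all genes (0.978% higher and 0.143% lower). At an unadjusted p under 0.05 there were 8 members (20%, against 19% of all genes), of which BST2 was higher and CGAS, GBP1, IFI35, IRF3, MX2, SAMHD1 and STAT2 were lower in hypoxia. The 7 lower ones were 17.5% of members, against 6.92% of all genes, and the 1 higher one 2.5%, against 12%. Fitted values were below 0 for 27 members and above 0 for 13, and their median log2 value was -0.18, against 0.02 over all genes, and 51% of all genes were above 0. The values of CGAS rest on A375 and SKMEL-5 libraries with 0 to 3 counts, and without it the members' median was -0.12. DESeq2, run on the same counts, called 2 members (IFI35 and SAMHD1, 5% of members) in the 3-line mean, against 7.86% of all genes.

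SAMHD1, which breaks down deoxynucleotides and starves reverse transcription (chr20:36889773-36951901, minus strand), was at 14.9 and 17.3 CPM in A2058 normoxia and 13.7 and 4.65 CPM in A2058 hypoxia. In A375 it was at 25.4 and 31.7 CPM in normoxia and 6.22 and 19.2 CPM in hypoxia, and in SKMEL-5 at 41.4 and 34.0 CPM and then 9.61 and 16.4 CPM. It was the only member with both hypoxic libraries below both normoxic ones in each line (1 of 40, 2.5%, against 2.79% of all genes), and no member was above in each line (against 4.86%). The 3-line log2 value was -1.17 (SE 0.34), with an adjusted p of 0.123. IFI35, a small regulator of innate signalling, was at 73.0 and 29.4 CPM in A2058 normoxia and 23.8 and 9.54 CPM in hypoxia. Its A375 values were 27.2 and 17.7 CPM and then 6.25 and 17.9 CPM, with overlap, and its SKMEL-5 values were 42.5 and 16.8 CPM and then 6.94 and 13.8 CPM. The 3-line value of IFI35 was -1.34 (SE 0.41, adjusted p = 0.131). Both genes passed the threshold with DESeq2 (adjusted p = 0.0181 for IFI35 and 0.0161 for SAMHD1), with no filter on low counts (0.000432 and 0.00477) and without A375 hypoxia replicate 2 (0.0441 and 0.0297). Those settings called 7.86%, 4.96% and 5.36% of all genes. In the other 18 of 21 alternatives neither gene was called, with adjusted p up to 0.518 for IFI35 and 0.348 for SAMHD1, and without the 3 libraries that stood apart their values were -0.86 and -0.69. In both, the lowest library of each line was the hypoxic one that stood apart.

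The other members with the widest 3-line values were not called either. OAS2 was at -0.88 (SE 0.60, adjusted p = 0.434), a value that rests on 0 to 9 counts per library in A2058 and was 0.95 without A2058 normoxia replicate 2. IFIT3 was at -0.81 (SE 0.42, adjusted p = 0.319) and GBP1, an interferon-gamma induced GTPase, at -0.68 (SE 0.29, adjusted p = 0.245). On the positive side, IRF7 was at 1.18 (SE 0.55, adjusted p = 0.272), BST2 at 0.96 (SE 0.40, adjusted p = 0.235) and GBP2 at 0.84 (SE 0.47, adjusted p = 0.350). IFI44L was at 0.80 (SE 0.53, adjusted p = 0.422), IFITM1 at 0.79 (SE 0.50, adjusted p = 0.404) and IFI44 at 0.64 (SE 0.35, adjusted p = 0.344). Without the 3 hypoxic libraries that stood apart, IRF7 was at -0.40, GBP2 at -0.17, IFI44 at -0.083 and IFI44L at 0.0091. IRF7 was at 0.45 without SKMEL-5 hypoxia replicate 1 alone. No sensor was called in the 3-line mean: STING1 was at -0.01 (SE 0.22), IFI16 at -0.01 (SE 0.22), IFIH1 at 0.01 (SE 0.37), DDX58 at -0.32 (SE 0.31) and TLR3 at -0.41 (SE 0.38), with adjusted p from 0.577 to 1.0.

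**Figure D3:**
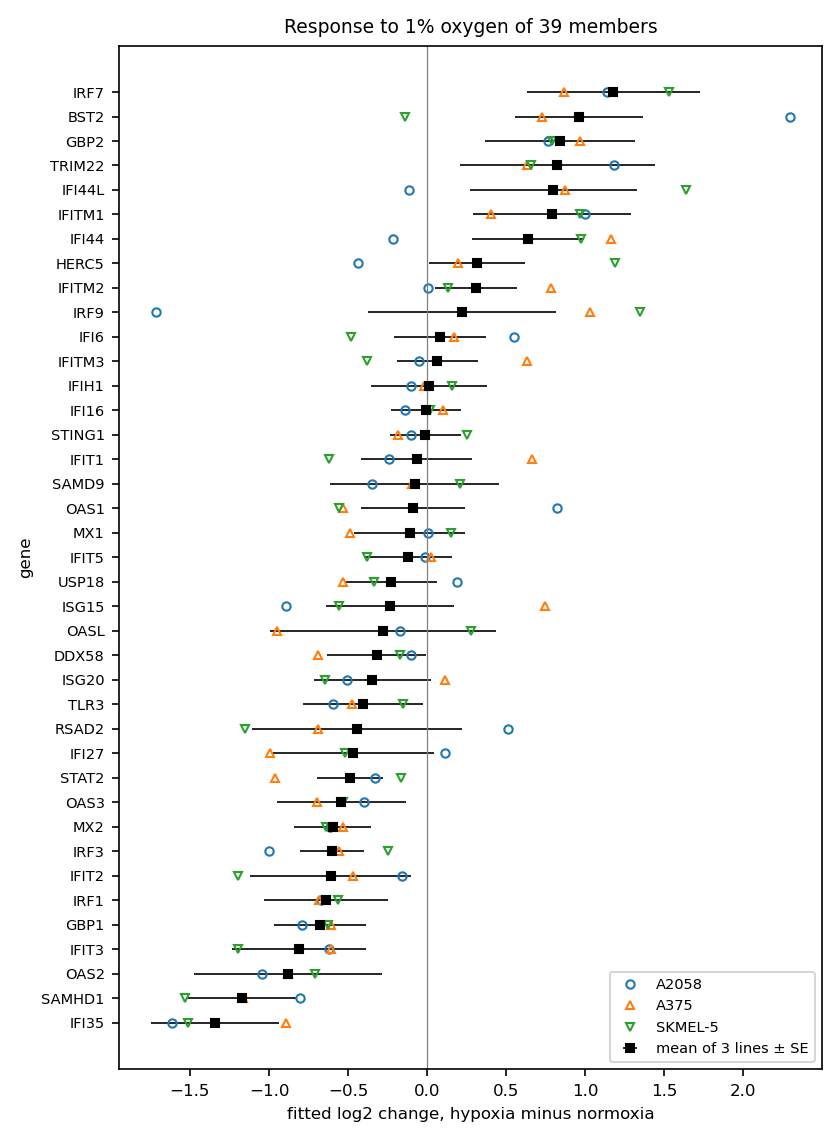
Fitted log2 difference of hypoxia from normoxia (horizontal axis) for 39 tested members, without CGAS, sorted by the mean of 3 lines (black squares, bars ± SE), with each line as an open symbol. None of the means was called, and the lines spread widely for BST2, IRF9 and IFI44.

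Within lines, 0 members were called in any line, against 0.0102% of all genes in A2058 and 0% in A375 and SKMEL-5. At an unadjusted p under 0.05 there were 3 in A2058 (BST2, IFI35 and IRF3, 7.5% against 9.16% of all genes), 1 in A375 (STAT2, 2.5% against 5.6%) and 2 in SKMEL-5 (HERC5 and SAMHD1, 5% against 6.53%). BST2 in A2058 had the clearest separation, at 2.97 and 3.33 CPM in normoxia and 14.5 and 16.4 CPM in hypoxia. Its fitted difference was 2.29 (SE 0.72, adjusted p = 0.348). In A375 BST2 was at 2.06 and 0.544 CPM and then 2.43 and 1.91 CPM, and in SKMEL-5 at 3.63 and 1.07 CPM and then 2.67 and 1.60 CPM, with overlap. The test of unequal responses in the lines gave an adjusted p of 1.0 for BST2, so the response is not shown to differ between lines. Fibroblast markers summed to 29 and 33.2 CPM in A2058 normoxia and to 83.5 and 132 CPM in A2058 hypoxia, and their part in the BST2 values was not tested.

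IRF3, the factor activated by the sensors, was at 63.0 and 48.6 CPM in A2058 normoxia and 29.8 and 26.1 CPM in hypoxia (-1.0, SE 0.35, adjusted p = 0.401). In A375 it was at 66.7 and 59.7 CPM and then 43.8 and 42.2 CPM, again without overlap, whereas the SKMEL-5 values overlapped, at 64.2 ± 20.1 CPM in normoxia and 54.2 ± 17.5 CPM in hypoxia (SD, n = 2). The 3-line value was -0.60 (SE 0.20, adjusted p = 0.162). STAT2, the partner of IRF9, was at 67.4 and 47.7 CPM in A375 normoxia and 23.9 and 35.1 CPM in A375 hypoxia (-0.96, SE 0.36, adjusted p = 0.840). The opposite strand of IRF3 carries 734 overlapping exonic bases of BCL2L12, and that of SAMHD1 1159 bases of TLDC2.

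Counted by separation of the 4 libraries of a line, A2058 had 4 members with both hypoxic libraries above (BST2, IFITM1, IRF7 and TRIM22, 10% against 20.5% of all genes). TRIM22 had only 1 and 2 counts there in normoxia and 6 and 2 in hypoxia, so its replicate 2 libraries differed by library scaling alone. In A2058 5 members lay below (IFI35, IRF3, IRF9, ISG15 and SAMHD1, 12.5% against 18.6%). A375 had 3 above (IFIT1, IFITM2 and IFITM3, 7.5% against 18.1%) and 12 below, among them CGAS at 0 to 3 counts, OAS1, OAS2, OAS3 and MX1 (30% against 14.2%). SKMEL-5 had 1 above (HERC5, 2.5% against 18.5%) and 10 below, among them GBP1, IFIT2, IFIT3, IFIT5, OAS1 and OAS2 (25% against 19.7%). OAS1 was at 19.2 and 14.1 CPM in A375 normoxia and 10.9 and 12.1 CPM in hypoxia, and at 18.8 and 15.5 CPM in SKMEL-5 normoxia and 10.9 and 12.4 CPM in hypoxia, with fitted values of -0.53 (SE 0.54) and -0.56 (SE 0.54), neither called. In A2058 its fitted value was 0.82 (SE 0.60), at under 1 CPM. The test of unequal responses called 0 members (against 0% of all genes), and 0 had an unadjusted p under 0.05 in it (against 1.6%). No member separated upward in one line and downward in another, and the share of all genes that did so was not computed.

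**Figure D4:**
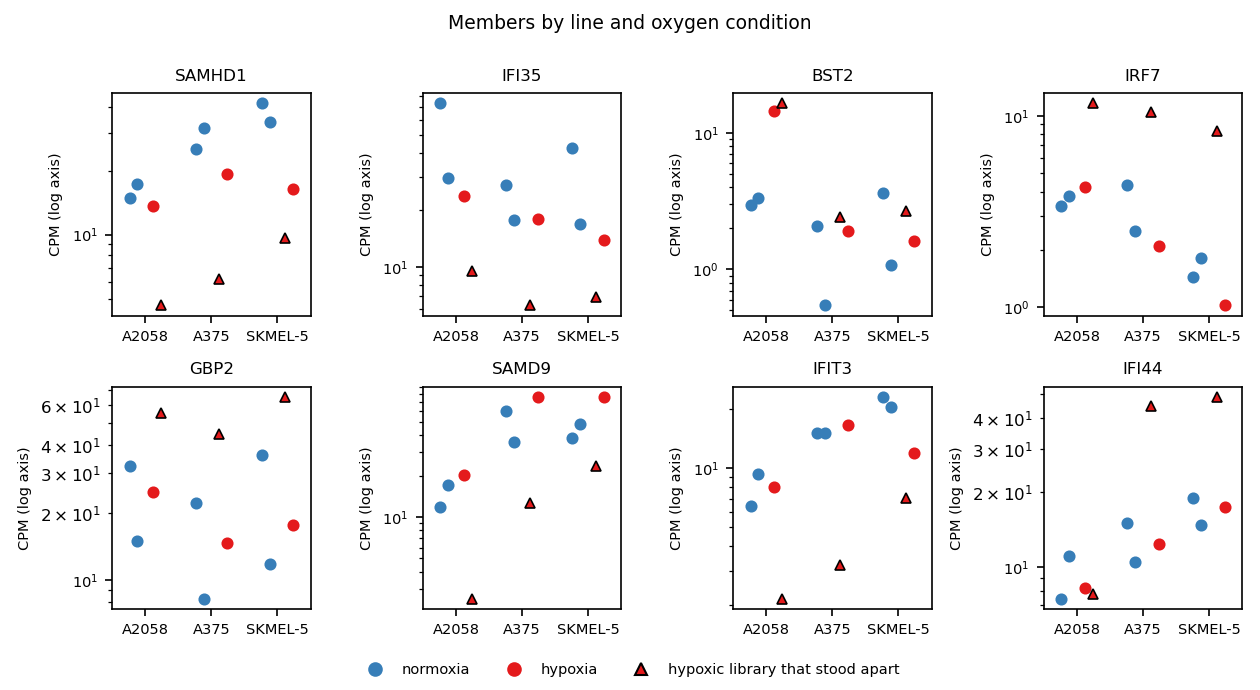
CPM of 8 members in each library (log axes, 1 panel per gene, blue for normoxia and red for hypoxia, triangles for the hypoxic libraries that stood apart). SAMHD1 is lower in hypoxia in each line, BST2 is higher in hypoxia in A2058, and IRF7, GBP2 and SAMD9 differ mainly between the triangle and the other hypoxic library. IFIT3 does so in A2058 and A375, whereas in SKMEL-5 both hypoxic libraries lie below both normoxic ones.

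Some members differed more between hypoxic duplicates than between oxygen conditions. IRF7, the amplifier of interferon transcription, was at 11.6, 10.4 and 8.34 CPM in the libraries that stood apart (in the order A2058, A375, SKMEL-5), and in the other hypoxic library of each line at 4.23, 2.09 and 1.02 CPM. GBP2 was at 55.3, 44.7 and 65.5 CPM against 24.7, 14.6 and 17.6 CPM. These 2 members were at least 2-fold higher in all 3 of those libraries (5% of members against 3.71% of all genes). SAMD9, a restriction factor for poxviruses, was at 2.53, 12.7 and 23.8 CPM against 20.2, 76.0 and 75.3 CPM, and OASL was lower as well at 0.172, 0 and 0.0715 CPM against 0.757, 0.182 and 0.233 CPM. These 2 were the members at least 2-fold lower in all 3 (5% against 4.95%). IFIT3, which fell short of that limit in SKMEL-5, was at 2.15, 3.21 and 7.01 CPM against 8.06, 16.6 and 12 CPM. In SKMEL-5 both hypoxic values of IFIT3 lay below both normoxic ones, which were 23.2 and 20.5 CPM. IFI44 and TRIM22 were higher in the A375 and SKMEL-5 libraries that stood apart (44.7 against 12.4 CPM and 48.7 against 17.4 CPM for IFI44) and not in A2058 (7.76 against 8.18 CPM). The libraries were picked out by their expression, so these are descriptions with no test.

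Other genes of the pathway gave no call in the 3-line mean. Of 9 receptor chains and kinases all were tested, 6 with fitted values above 0 and 3 below, with a median of 0.17. The one with the smallest p was IFNGR1, a chain of the interferon-gamma receptor, at 6.75 to 12.4 CPM in normoxia and 12 to 18.6 CPM in hypoxia (0.77, SE 0.21, adjusted p = 0.102, called by DESeq2 with an adjusted p of 0.00488). Of 19 genes that carry the sensors' signal 16 were tested, 5 above 0 and 11 below (median -0.08), with the smallest p for the adaptor MYD88 at -0.72 (SE 0.26, adjusted p = 0.185). Without A375 hypoxia replicate 2 MYD88 was at -1.03 (adjusted p = 0.0312). Of 12 genes that restrain the response 11 were tested, 2 above 0 and 9 below (median -0.19), with the smallest p for NLRC5 at -0.83 (SE 0.34, adjusted p = 0.224). Of 36 other interferon-induced genes 33 were tested, 12 above 0 and 21 below (median -0.10), with the smallest p for PLSCR1 at -0.50 (SE 0.17, adjusted p = 0.165, called by DESeq2 with an adjusted p of 0.0281). Against 1.12% of all genes, 0 were called in each list. Of the 9 interferon genes only IFNE was tested (-0.39, SE 0.67, adjusted p = 0.788).

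The line comparison touched a few of these genes too, named here after their values were seen. TYK2, a kinase of the type I receptor, was at 32.4 to 67.3 CPM in A2058 and 106 to 172 CPM in the other lines, with log2 differences of -1.25 in normoxia (adjusted p = 0.00770) and -1.62 in hypoxia (adjusted p = 0.00175). It was the only one called of the 9 receptors and kinases tested. Of 33 other interferon-induced genes tested, 4 were called higher in A2058 in normoxia (GBP3, DDX60L, EPSTI1 and TNFSF10) and 0 lower. In hypoxia 3 were called higher (GBP3, EPSTI1 and TNFSF10) and 2 lower, among them SP110 (log2 difference -1.60, adjusted p = 0.0392). SP110 was at 10.1 and 10 CPM in A2058 hypoxia, against 46.5 and 16.4 CPM in A375 and 42.6 and 16.6 CPM in SKMEL-5. Its high values were in the A375 and SKMEL-5 libraries that stood apart, and their part in the SP110 call was not tested. Of all tested genes, 17.9% were called in normoxia and 21.1% in hypoxia, so these calls concern single genes and not the lists. GBP3, at 4.11 to 13.2 CPM in A2058 and 0.805 to 2.49 CPM elsewhere, had a log2 difference of 2.80 in normoxia (SE 0.57, adjusted p = 0.00583). TNFSF10, the death ligand TRAIL, had 63 counts over the 4 A2058 libraries and 0 in the other 8, at least 47.8-fold higher against a floor of 3 counts over those 8 libraries. IFNAR1 and IFNAR2, the chains of the type I receptor, were present in all libraries, at 19.5 to 65.1 CPM and 1.86 to 13.2 CPM.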

How the data were processed

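RNA was extracted with an RNeasy Mini kit and made into libraries with the NuGen Universal Plus mRNA kit, per the labels' protocols. Tools listed in the submitters' processing notes are STAR 2.5.0a, Trim Galore 0.6.1 and bcl2fastq 2.20, with the build GRCh38. How reads were counted, with or without strand and on which gene models, is not given in the sources used here. The authors deposited raw counts per Ensembl gene ID for all 12 libraries, and totals ran from 33831569 to 54202819 counts. IDs were matched without their version, and positions and exon lengths are from GENCODE 29.

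Genes were kept by edgeR's filterByExpr (minimum count 10, minimum total 15), which left 19636. Counts were scaled by TMM, and edgeR's quasi-likelihood test (edgeR 4.0.16, R 4.3.3) was fitted with 6 group means over all 12 libraries. Benjamini-Hochberg adjustment ran over all tested genes, and a gene was called at an adjusted p under 0.05. Log2 differences are given with SE, CPM with SD. Ratios for genes near 0 counts use raw counts over library totals with exact intervals that cover counting error only. Scripts were tested on simulated data. The replicate numbers were not taken to pair libraries, because the correlation of replicate differences was -0.30 within A2058 (0.23 in A375, 0.26 in SKMEL-5). Across lines it was 0.26, 0.47 and 0.58 in normoxia, and in hypoxia -0.47 and -0.41 for A2058 with the other lines and 0.80 for A375 with SKMEL-5. Alternatives were DESeq2 1.42.0, limma-voom (limma 3.58.1), other filters, replicate blocks, single libraries left out, and the 3 libraries that stood apart left out. Named genes were the called members, those with the widest 3-line values at a mean of at least 1 CPM, and the gene with the smallest p of each pathway list. Fitted values of other members (STING1, DDX58, IFIH1, TLR3, IRF3, STAT2, and OAS1 and BST2 within lines) and of other pathway genes in the line comparison fall outside this rule and were picked with their values in view. The members and all lists were chosen with earlier results of these data known.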

Additional observations from a re-analysis of the deposited data

How the results depend on the processing

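In the 3-line mean, 0 members were called by edgeR (against 1.12% of all genes), 2 by DESeq2 (5% of members against 7.86%) and 3 with no filter on low counts (7.32% against 4.96%). In A2058 against the other lines, leaving out 1 library gave 5 to 9 members in normoxia (9 in all libraries) and 6 to 12 in hypoxia (11 in all libraries). The hypoxic count was 7 without the 3 libraries that stood apart, 7 with A375 alone and 7 with SKMEL-5 alone. The other 5 comparisons had 0 members called in every alternative run. For A2058 against the other lines, DESeq2 called 9 members in normoxia (22.5%, against 22.5% of all genes) and 13 in hypoxia (32.5%, against 26.6%). With no filter on low counts there were 9 (22%, against 12.2%) and 14 (34.1%, against 14%). The replicate block gave 0 members in the 3-line mean, 9 and 11 in the line comparisons and 0 elsewhere, and it ended the IFIT5 call in hypoxia (-1.29, adjusted p = 0.0843). The block with A2058 hypoxia numbers crossed gave 0 members in A2058.

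Without the 3 libraries that stood apart, the 3-line values of IRF7 (-0.40), GBP2 (-0.17), IFI44 (-0.083) and IFNE (0.12) changed sign. With 1 library left out, the 3-line value of OAS2 ran from -2.35 to 0.95 (above 0 without A2058 normoxia replicate 2) and that of IFNE from -1.63 to 1.30 (above 0 without A2058 normoxia replicate 1). The cause was not tested. Of 833 recomputed values over 40 single-gene results, 743 kept direction and side of the threshold, 75 lost the call, 9 gained it and 6 changed sign. Groups held 2 libraries each, and the common biological coefficient of variation was 0.453. Over all genes, the 3-line mean had 220 called genes with edgeR, 1543 with DESeq2, 1855 with no filter, 91 with the replicate block, 30 without the libraries that stood apart, 48 with A2058 and A375 alone, 34 with A2058 and SKMEL-5 alone, and 15 (without either A375 normoxia library) to 1120 (without A375 hypoxia replicate 2) with 1 library left out. The line comparison had 3523 genes in normoxia (1773 without A2058 normoxia replicate 1) and 4152 in hypoxia (2738 and 1891 without A2058 hypoxia replicates 1 and 2, and 1899 without the libraries that stood apart).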
